A study of Homo sapiens with 2 samples.

Results

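The 35 genes described here carry cells through G2 and mitosis. They are cyclins and kinases, kinetochore and checkpoint genes, spindle motors and spindle proteins, cytokinesis genes, and 2 genes of the mitotic chromosome. The remaining 2 encode a coactivator and the ubiquitin-conjugating enzyme of the anaphase-promoting complex. The genes were chosen by symbol, and all 35 were found among the 19927 gene rows of the count table. Messenger RNA was sequenced from Huh7, an established human hepatocellular carcinoma cell line, with 1 library of cells in which PPIL1 was knocked down by a short hairpin RNA (shPPIL1#1 in the title, genotype PPIL1 knockdown; called shPPIL1 here) and 1 library of cells carrying a control hairpin (titled shControl, genotype WT). PPIL1 is a cyclophilin-type prolyl isomerase of the spliceosome, and the design asks how its knockdown alters gene expression. Both groups share the cell line and the hairpin format, 1 hairpin against PPIL1 was sequenced, and there are no replicates. No test between conditions can therefore be made, and every interval given here covers counting error only.

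Mitotic genes are transcribed in a wave late in the cell cycle. Cyclins A and B with the kinase CDK1 drive entry into mitosis, Polo and Aurora kinases build the spindle, and the spindle checkpoint holds back the anaphase-promoting complex (APC/C) until each chromosome is attached. The wave is switched on by the MuvB complex with B-MYB and FOXM1, and held off in quiescent cells by the DREAM complex, which uses the same MuvB core. In liver these genes are low in resting hepatocytes and high in regenerating and tumour tissue. In bulk RNA, fewer cells in mitosis and less of a transcript per mitotic cell cannot be told apart.

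The shPPIL1 library held 41165401 counted reads and the shControl library 41015345. PPIL1 itself had 104 reads in shPPIL1 and 1505 in shControl, or 1.67 FPKM (fragments scaled to gene length and library size) in shPPIL1 and 24.2 in shControl, a ratio of 0.0679 with a 95% counting interval of 0.0551 to 0.0829. The direction is that of the labels. All 10 hepatocyte markers checked, among them ALB and AFP, were above 60 FPKM in both libraries. The endothelial list summed to 1.36 FPKM in shPPIL1 and 1.58 in shControl, most of it PECAM1 (1.27 and 1.48). Its members VWF, KDR, TEK and CDH5 were under 0.1 FPKM. Of the fibroblast list COL1A2 was at 0 reads in both libraries. LUM reached 13.7 FPKM in shPPIL1 and 13.8 in shControl, and COL1A1 2.05 and 1.82. Of the leukocyte list PTPRC and CD3E were under 0.1 FPKM, while 3 of its 6 genes reached 1 FPKM in both libraries. These were LYZ (181 FPKM in shPPIL1 and 223 in shControl), CD68 (18.2 and 19.5) and CD14 (1.54 and 1.22).

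The mitotic genes as a set were at almost the same level in both libraries. Together they took 206950 reads in shPPIL1 and 206822 in shControl, or 0.503% of reads in shPPIL1 (exact 95% binomial interval 0.501 to 0.505%) and 0.504% in shControl (0.502 to 0.506%). Ratios here are shPPIL1 over shControl, with each library's total scaled by its TMM factor (a trimmed-mean scaling), and a gene is called higher or lower when the ratio is at least 1.2-fold and its interval excludes 1. The summed ratio of the 35 genes was 0.983 (0.977 to 0.989), next to 0.986 for the sum over all 12540 genes with at least 1 CPM in 1 library. The median log2 ratio of the 35 genes was -0.03, and that of all 12540 genes was 0.00 to 2 decimals.

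Of the 35 genes, 1 was called higher and 0 were called lower. Over all 12540 genes 8.32% were called higher and 9.52% lower, so neither count stands above the background. Over the 8729 genes with mean reads in the range of the members, which leaves out the low counts, the shares were 5.03% and 7.46%. The gene called was CENPA. The other 34 lay within 1.18-fold of equal expression. In all, 29 of the 35 were within 1.1-fold, against 53.8% of all genes kept and 62.1% of the genes in that range. The middle 50% of the members' log2 ratios ran from -0.09 to 0.05, and that of all genes kept from -0.13 to 0.12. These are descriptions of 2 libraries, and the narrower spread was not tested.

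**Figure D1:**
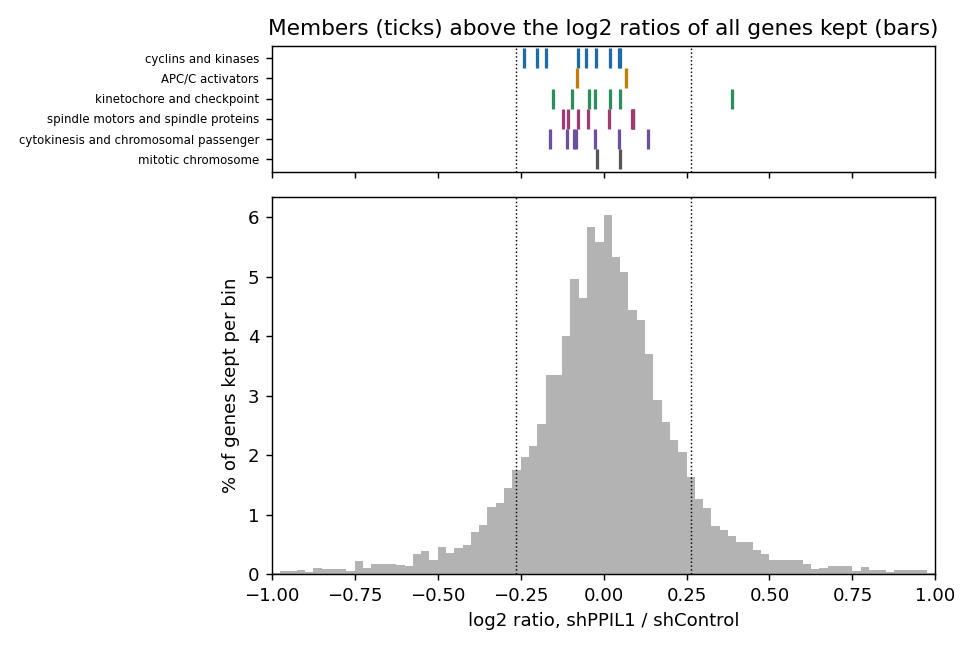
Log2 ratio of shPPIL1 over shControl for the 35 mitotic genes (ticks, by role, upper panel) and for the 12540 genes kept (bars, percent of genes in each bin, lower panel; genes beyond 1 in either direction are outside the axis). Dotted lines mark 1.2-fold in either direction. The ticks lie between the dotted lines except that of CENPA at 0.39.

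Counting error alone is small for most of these genes, so their intervals can exclude 1 at minor differences. The interval lay below 1 for 14 genes, above 1 for 7 and included 1 for 14. Over all genes kept the interval lay below 1 for 26.4% and above 1 for 24.6%, and over those in the members' range of reads for 29.7% and 26.7%. With the size factors of DESeq2, another scaling, the 2 counts were 14 below and 8 above. With libraries scaled by their totals alone, they were 11 below and 12 above. Which side holds more mitotic genes thus differed between totals alone and the other 2 scalings. The shares of all genes kept with such intervals were not computed with DESeq2 size factors or with totals alone. The median log2 ratio of all genes kept also moved, from -0.002 with TMM factors to 0.002 with DESeq2 size factors and 0.02 with totals alone. Reads per gene ran from 605 to 23217 in shPPIL1 and from 455 to 23136 in shControl. The widest interval reached a factor of 1.13 to either side (CENPA) and the narrowest 1.02 (TOP2A). With 1 library per group, a culture-to-culture difference of any size in these genes could not be told apart from an effect of the hairpin.

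**Figure D2:**
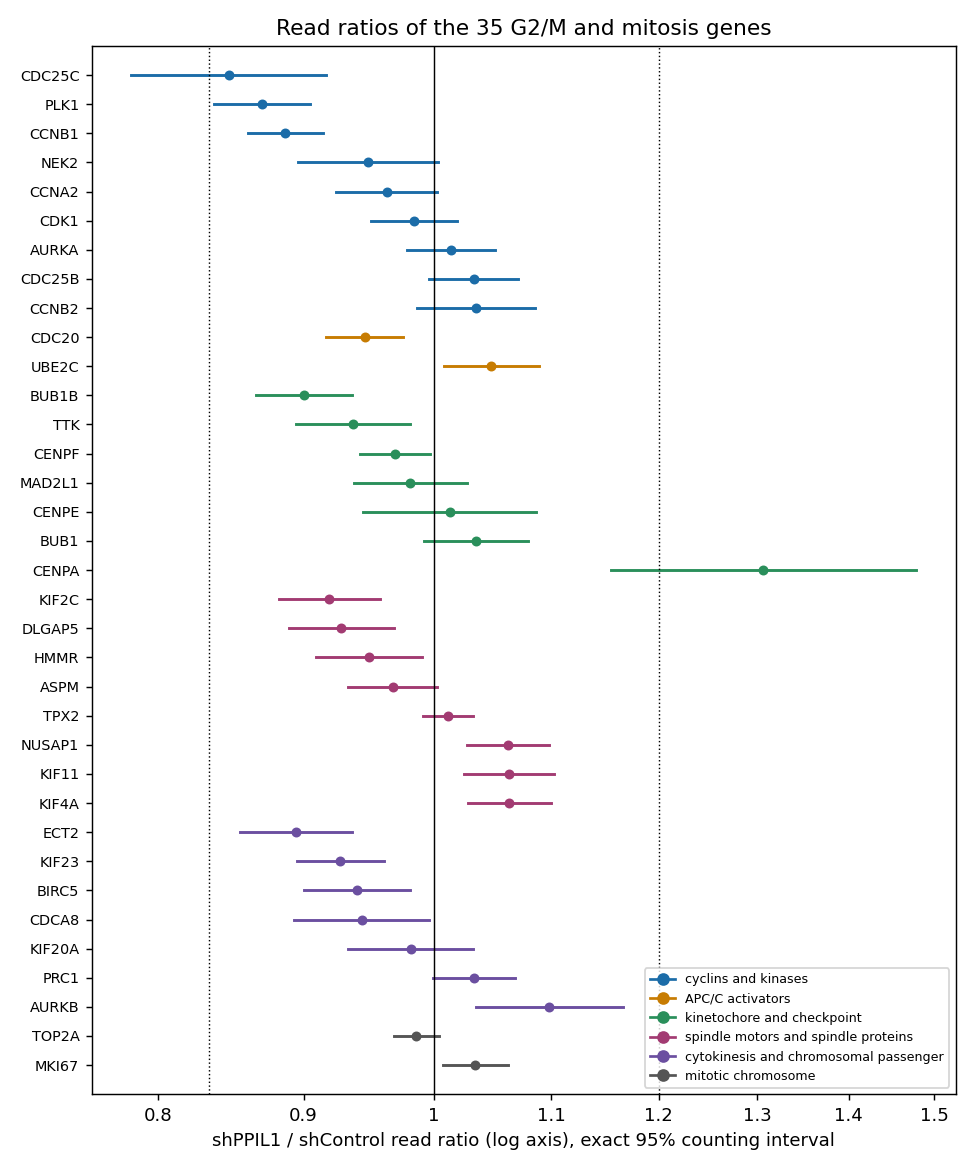
Ratio of shPPIL1 over shControl reads for each of the 35 genes (points, log axis) with its exact 95% counting interval (bars), grouped by role and sorted within each role. The solid line marks equal expression and the dotted lines 1.2-fold. CENPA at 1.31 is the one point beyond a dotted line, and CDC25C at 0.847 is the nearest to the other.

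The level of a gene per length differed far more between genes than between libraries. Members spanned 4.80 to 194 FPKM in shPPIL1 and 4.67 to 182 FPKM in shControl, with medians of 38.3 FPKM in shPPIL1 and 37.4 in shControl. Over all genes kept the medians were 9.40 FPKM in shPPIL1 and 9.28 in shControl. UBE2C, TPX2 and CDC20 were the 3 highest in both libraries, and CDC25C, CENPA and CENPE the 3 lowest. Ranked by FPKM, 17 genes held their place, 14 moved by 1 place and 4 by 2 places. Ratio and level showed little rank correlation: across the 35 genes, which share both libraries, Spearman's rho between log2 ratio and FPKM was 0.09, and between log2 ratio and gene length -0.03. Both are given as descriptions.

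**Figure D3:**
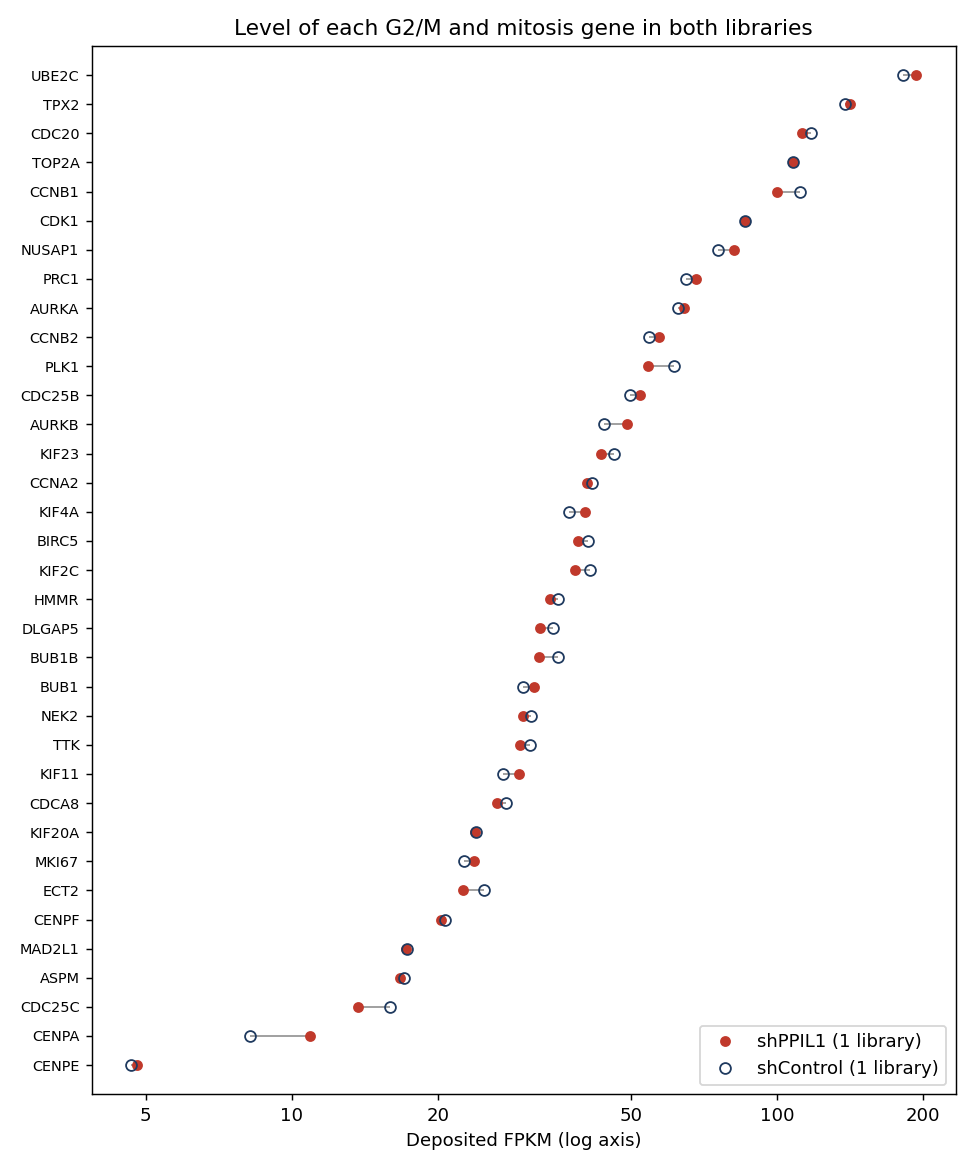
Deposited FPKM of each of the 35 genes (log axis) in the shPPIL1 library (filled) and the shControl library (open), ordered by the level in shPPIL1. The paired points lie close together along the whole range, from CENPE (4.80 FPKM in shPPIL1 and 4.67 in shControl) to UBE2C (194 FPKM in shPPIL1 and 182 in shControl), with the widest gap at CENPA.

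Many of these genes share a promoter layout. RefSeq promoters (GRCh38.p14) were matched for 30 of the 35 genes and searched on both strands over the 250 bases before the annotated start. The cell cycle genes homology region (CHR), TTTGAA, through which MuvB binds, was found in 17 of the 30 (56.7%), against 8.61% of 10273 promoters of genes kept and 13.6% of all 27305 promoters. In 10 genes a match fell in the last 40 bases before the start. The CCAAT box, the site of NF-Y, was found in 25 of the 30 (83.3%), against 35.2% of promoters of genes kept, and 16 of the 30 held 2 or more, against 13.1%. Both TTTGAA and 2 or more CCAAT boxes occurred in 10 of the 30, while TTTGAA or its variant TTCGAA together with 2 or more CCAAT boxes occurred in 1.48% of promoters of genes kept. An E2F-type match (TTTGGCGC or TTTCGCGC) was found in 1 of the 30, in NUSAP1, against 1.72% of the promoters of genes kept. Of these motifs, TTTGAA and CCAAT can share bases on opposite strands, as they do in CDCA8 and MKI67.

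The last 130 bases before the start are given for 6 genes chosen after their values were seen: the gene called higher, the 3 lowest genes, the second B-type cyclin and the APC/C activator CDC20. Letters run along the gene's strand, and capitals mark TTTGAA and CCAAT on either strand, where the reverse-strand forms read TTCAAA and ATTGG. The stretches are chr2:26785926-26786055 (CENPA, plus strand), chr5:138338356-138338485 (CDC25C, minus), chr16:23678759-23678888 (PLK1, plus), chr5:69167020-69167149 (CCNB1, plus), chr15:59105016-59105145 (CCNB2, plus) and chr1:43358851-43358980 (CDC20, plus).
CENPA: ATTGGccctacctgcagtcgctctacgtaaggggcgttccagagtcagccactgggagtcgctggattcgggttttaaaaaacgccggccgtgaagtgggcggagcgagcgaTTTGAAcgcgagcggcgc
CDC25C: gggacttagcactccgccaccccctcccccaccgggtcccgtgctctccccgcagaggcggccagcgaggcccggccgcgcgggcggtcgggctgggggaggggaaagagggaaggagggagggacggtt
PLK1: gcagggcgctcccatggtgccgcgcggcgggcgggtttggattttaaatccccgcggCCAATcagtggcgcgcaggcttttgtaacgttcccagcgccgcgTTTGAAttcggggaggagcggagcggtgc
CCNB1: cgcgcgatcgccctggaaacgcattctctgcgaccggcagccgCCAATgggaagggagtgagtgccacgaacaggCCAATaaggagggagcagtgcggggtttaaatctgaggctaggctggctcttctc
CCNB2: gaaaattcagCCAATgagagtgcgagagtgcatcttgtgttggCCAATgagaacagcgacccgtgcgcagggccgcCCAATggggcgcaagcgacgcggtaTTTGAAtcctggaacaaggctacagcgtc
CDC20: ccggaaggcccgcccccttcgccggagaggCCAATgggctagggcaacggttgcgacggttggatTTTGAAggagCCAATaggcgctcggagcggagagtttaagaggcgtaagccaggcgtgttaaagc
In these stretches CCNB2 carries 3 CCAAT boxes at steps of 33 bases and CCNB1 carries 2 boxes 32 bases apart, and PLK1 and CCNB2 both have TTTGAA 29 bases before the start. CCNB1 has no TTTGAA in this window and CDC25C has neither motif, which says only that these letters are absent from this window of the annotated start. The ratios overlapped between layouts: the 17 genes with TTTGAA had a median log2 ratio of -0.05 (from -0.20 to 0.39), and the 13 without one -0.03 (from -0.24 to 0.14). The median was -0.05 for the 16 genes with 2 or more CCAAT boxes and -0.02 for the other 14. For the 10 genes with both features it was -0.06, and for the other 20 it was -0.03. These differences were not tested.

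Among the cyclins and kinases, the genes of mitotic entry, 3 of 9 had an interval below 1, 0 had one above 1, and none was called. Of all genes in the members' range of reads, 29.7% had an interval below 1 and 26.7% above. Counts by role were taken under the TMM scaling only. The median log2 ratio was -0.05. CCNB1, cyclin B1, had 8001 reads in shPPIL1 and 8865 in shControl, or 100.2 FPKM in shPPIL1 and 111 in shControl, a ratio of 0.887 (0.860 to 0.914). CCNB2, cyclin B2, had 3507 reads in shPPIL1 and 3329 in shControl, or 57.3 FPKM in shPPIL1 and 54.5 in shControl, a ratio of 1.04 (0.987 to 1.09). The B-type cyclins thus lay on opposite sides of equal expression, though the interval of CCNB2 included 1. CCNA2, cyclin A2, stood at 4590 reads in shPPIL1 and 4683 in shControl (0.963, 0.924 to 1.003). CDK1, the kinase these cyclins activate, stood at 6487 reads in shPPIL1 and 6475 in shControl (0.984, 0.951 to 1.02).

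The CDC25 phosphatases remove inhibitory phosphates from CDK1. CDC25C had 1171 reads in shPPIL1 and 1358 in shControl, or 13.7 FPKM in shPPIL1 and 15.9 in shControl, a ratio of 0.847 (0.783 to 0.917). It was the lowest ratio of the 35, at 1.18-fold lower, and the gene lies on chromosome 5 from 138285265 to 138338355. Its exons share 276 of 2570 bases (10.7%) with FAM53C on the opposite strand, which had 3028 reads in shPPIL1 and 3135 in shControl, and without a stated strand setting reads there cannot be told apart. Opposite-strand overlaps also cover 5.15% of the exon bases of CCNA2 (with EXOSC9), 2.12% of KIF20A (with CDC23) and 1.89% of PLK1 (with ERN2, at 0 reads in both libraries). CDC25B had 6166 reads in shPPIL1 and 5865 in shControl (1.03, 0.996 to 1.07).

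PLK1, the Polo-like kinase of mitotic entry and spindle assembly, had 4821 reads in shPPIL1 and 5444 in shControl, or 54.2 FPKM in shPPIL1 and 61.4 in shControl, a ratio of 0.870 (0.837 to 0.905). AURKA, the Aurora kinase of the spindle poles, stood at 6179 reads in shPPIL1 and 5987 in shControl (1.01, 0.978 to 1.05). NEK2, a kinase of centrosome separation, stood at 2377 reads in shPPIL1 and 2463 in shControl (0.948, 0.896 to 1.004). Of the kinases in this group, PLK1 alone had an interval that excluded 1.

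The 2 genes labelled APC/C activators in the figures are a coactivator and a ubiquitin-conjugating enzyme, and they lay on opposite sides of equal expression. CDC20, the coactivator that brings mitotic substrates to the complex, had 7648 reads in shPPIL1 and 7946 in shControl, or 113 FPKM in shPPIL1 and 117 in shControl, a ratio of 0.946 (0.916 to 0.976). UBE2C, the ubiquitin-conjugating enzyme of the complex and the highest of the 35 genes per length, had 5371 reads in shPPIL1 and 5036 in shControl, or 194 FPKM in shPPIL1 and 182 in shControl, a ratio of 1.05 (1.01 to 1.09).

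In the kinetochore and checkpoint group, 3 of 7 genes had an interval below 1 and 1 above, with a median log2 ratio of -0.03. The shares over genes in the members' range of reads were 29.7% below and 26.7% above. CENPA, the histone H3 variant that marks centromeres, had 605 reads in shPPIL1 and 455 in shControl, or 10.9 FPKM in shPPIL1 and 8.22 in shControl, a ratio of 1.31 (1.15 to 1.48). The gene lies on chromosome 2 from 26786056 to 26794589 (GRCh38). It was 1 of the 2 lowest members by level and has the widest interval. HJURP, the chaperone that deposits CENPA, had 4947 reads in shPPIL1 and 4866 in shControl, a ratio of 0.999 (0.960 to 1.04). BUB1B, the checkpoint protein BubR1, had 4874 reads in shPPIL1 and 5318 in shControl (0.900, 0.866 to 0.936), and TTK, the checkpoint kinase Mps1, 3594 reads in shPPIL1 and 3769 in shControl (0.937, 0.895 to 0.981). BUB1, a checkpoint kinase, stood at 4473 reads in shPPIL1 and 4245 in shControl (1.04, 0.992 to 1.08). MAD2L1, which holds CDC20 inactive, stood at 3705 reads in shPPIL1 and 3709 in shControl (0.981, 0.937 to 1.03). CENPE, the kinetochore kinesin, and CENPF, a large kinetochore and nuclear matrix protein, had ratios of 1.01 (0.945 to 1.09) and 0.969 (0.942 to 0.997).

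All 8 spindle motors and spindle proteins lay within 1.1-fold, with a median log2 ratio of -0.02, 3 intervals below 1 and 3 above. Genes in the members' range of reads had 29.7% of intervals below 1 and 26.7% above. KIF11, the motor that pushes spindle poles apart, had 6067 reads in shPPIL1 and 5609 in shControl, a ratio of 1.06 (1.02 to 1.102). KIF4A, a chromosome-bound kinesin, had 7280 reads in shPPIL1 and 6726 in shControl (1.06, 1.03 to 1.099), and its retrocopy KIF4B, identical to KIF4A in 2.12% of windows of 100 bases, had 18 reads in shPPIL1 and 30 in shControl. KIF2C, a kinesin that takes apart microtubule ends, had 4447 reads in shPPIL1 and 4754 in shControl (0.919, 0.882 to 0.958). The motors therefore did not share a direction.

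Of the proteins that bundle or nucleate spindle microtubules, TPX2, an activator of AURKA, had 19470 reads in shPPIL1 and 18903 in shControl (1.01, 0.992 to 1.03), and NUSAP1 7373 reads in shPPIL1 and 6820 in shControl (1.06, 1.03 to 1.098). HMMR and DLGAP5 had ratios of 0.949 (0.909 to 0.990) and 0.928 (0.889 to 0.968), and ASPM, a spindle pole protein, 0.967 (0.933 to 1.003). NUSAP1 and PRC1 share 63.6% and 62.4% of their windows with readthrough gene models on the same strand, AC087721.2 and AC068831.7, which have no row in the count table. For the other 33 genes at most 5.51% of windows matched a transcript of another gene.

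Among the cytokinesis and chromosomal passenger genes, 4 of 7 had an interval below 1 and 1 above. Over genes in the members' range of reads the shares were 29.7% below and 26.7% above, and the difference was not tested. The median log2 ratio of this role was -0.08, the lowest of the 6 roles. ECT2, the exchange factor that activates RhoA at the cleavage furrow, had 3603 reads in shPPIL1 and 3958 in shControl, or 22.6 FPKM in shPPIL1 and 24.9 in shControl, a ratio of 0.894 (0.855 to 0.936). KIF23, the centralspindlin motor, had 6024 reads in shPPIL1 and 6382 in shControl (0.927, 0.895 to 0.961), and the related kinesin KIF20A 3036 reads in shPPIL1 and 3039 in shControl (0.982, 0.933 to 1.03). PRC1, which bundles the central spindle, stood at 7102 reads in shPPIL1 and 6753 in shControl (1.03, 0.999 to 1.07).

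The chromosomal passenger complex corrects wrong attachments and guides cytokinesis. Its kinase AURKB had 2332 reads in shPPIL1 and 2086 in shControl, or 49.0 FPKM in shPPIL1 and 44.0 in shControl, a ratio of 1.098 (1.03 to 1.17), the second highest of the 35. Its targeting subunits BIRC5 (survivin) and CDCA8 (borealin) had ratios of 0.940 (0.900 to 0.981) and 0.943 (0.893 to 0.997). INCENP, the scaffold subunit, is not among the 35 and had 3477 reads in shPPIL1 and 3288 in shControl (1.04, 0.990 to 1.09). AURKB thus lay above equal expression and BIRC5 and CDCA8 below it, by less than 1.2-fold each, while the interval of INCENP included 1.

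TOP2A, the topoisomerase that untangles sister chromatids, had the most reads, 23217 in shPPIL1 and 23136 in shControl, or 108 FPKM in both libraries (0.986, 0.968 to 1.004). MKI67, the proliferation marker Ki-67 that coats mitotic chromosomes, had 11485 reads in shPPIL1 and 10908 in shControl (1.03, 1.01 to 1.06).

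Related members were set against each other within the libraries by the ratio of their ratios, with an exact conditional interval, for 5 pairs and with no adjustment over them. CCNB1 over CCNB2 gave 0.857 (0.810 to 0.907), with FPKM quotients of 1.75 in shPPIL1 and 2.04 in shControl. CDC25C over CDC25B gave 0.820 (0.752 to 0.895), BUB1B over BUB1 0.870 (0.821 to 0.921), and AURKA over AURKB 0.923 (0.861 to 0.990). KIF23 over KIF20A gave 0.945 (0.888 to 1.01). These values do not depend on how the libraries are scaled, and 4 of the 5 intervals excluded 1. The pairs were not part of the plan. Each pair was written with the gene of lower ratio first, as seen in these data, so each value lies below 1. Pairs of CENPA with HJURP and with another kinetochore gene were listed but not computed. For single genes, a different measure, the interval lay below 1 for 26.4% and above 1 for 24.6% of all genes kept. The share over pairs drawn from all genes was not computed. The 5 values compare 2 libraries, and whether they would recur in other cultures was not tested.

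Other genes of mitosis were centred near equal expression, with some farther from it than any of the 35. Of 130 further genes in 6 lists, 129 were measured, with a median log2 ratio of -0.01. In all, 86 of the 129 (66.7%) lay within 1.1-fold, next to 82.9% of the 35 and 53.8% of all genes kept, and the difference was not tested. Of the 129, 7 were called higher and 6 lower, against 8.32% and 9.52% of all genes kept. In the control of kinases and phosphatases, CDC25A, a phosphatase of CDK2 and CDK1, was 1.30-fold higher (3257 reads in shPPIL1 and 2464 in shControl), and WEE1, the kinase that opposes it, 1.21-fold higher. MASTL, the Greatwall kinase, was 1.21-fold lower.

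In the kinetochore list of 37 genes, SPC24, a subunit of the NDC80 complex, had 983 reads in shPPIL1 and 721 in shControl and was 1.34-fold higher. PMF1, of the MIS12 complex, was 1.32-fold higher and the checkpoint gene MAD1L1 1.26-fold higher. CENPW, a centromere histone-fold protein, had 518 reads in shPPIL1 and 852 in shControl, a ratio of 0.597 (0.535 to 0.667) and the largest departure among the 129 genes, and CENPK was 1.21-fold lower. Among the rest, the augmin subunit gene HAUS4 and the cohesin subunit gene STAG1 were 1.26-fold and 1.27-fold higher. The cytokinesis scaffold gene ANLN was 1.25-fold lower, the cohesin release factor gene WAPL 1.21-fold lower and the APC/C subunit gene CDC26 1.31-fold lower. With libraries scaled by their totals, MASTL, CENPK and WAPL were no longer called. PKMYT1, at 1.199-fold higher under TMM, was called higher with totals (1.22-fold) and with DESeq2 size factors (1.202-fold).

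Of 16 regulators of the mitotic wave, 10 lay within 1.1-fold. MYBL2 (B-MYB) had 9180 reads in shPPIL1 and 8812 in shControl (1.02, 0.994 to 1.05), and FOXM1 4019 reads in shPPIL1 and 4275 in shControl (0.924, 0.884 to 0.965). Of the MuvB subunits, LIN9 had 929 reads in shPPIL1 and 1172 in shControl (0.779, 0.714 to 0.850), LIN37 571 reads in shPPIL1 and 437 in shControl (1.28, 1.13 to 1.46), LIN52 1165 reads in shPPIL1 and 987 in shControl (1.16, 1.06 to 1.26), and LIN54, which contacts the CHR, 2779 reads in shPPIL1 and 2685 in shControl (1.02, 0.964 to 1.07). E2F5 was 1.52-fold lower. The NF-Y subunits NFYA, NFYB and NFYC had ratios of 0.889, 0.934 and 1.01. Of the 16, 1 was called higher and 2 lower, where 8.32% of all genes kept were called higher and 9.52% lower.

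Of the p21, RB and E2F list, 1 of 8 was called higher and 1 lower, beside the same 8.32% and 9.52% of all genes kept. CDKN1A, the CDK inhibitor p21, had 3356 reads in shPPIL1 and 3892 in shControl (0.847, 0.809 to 0.887), below the 1.2-fold limit. MDM2, a ubiquitin ligase, was 1.24-fold lower, and E2F7, an atypical E2F repressor, 1.27-fold higher.

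Genes of G1/S and DNA replication, the cell cycle wave before this one, were compared as the most similar list. All 42 were measured, with a median log2 ratio of 0.02, and 27 of 42 lay within 1.1-fold, next to 29 of 35 mitotic genes. Of the 42, 1 was called higher and 4 lower, namely GINS3 (1.30-fold higher), and UHRF1 (1.34-fold lower), RFC2 (1.31-fold lower), POLE2 (1.29-fold lower) and CDC6 (ratio 0.830). Over all genes kept, 8.32% were called higher and 9.52% lower, so the share called lower among the 42 was at the background. CDC6 was not called with libraries scaled by their totals. The difference between the lists was not tested.

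**Figure D4:**
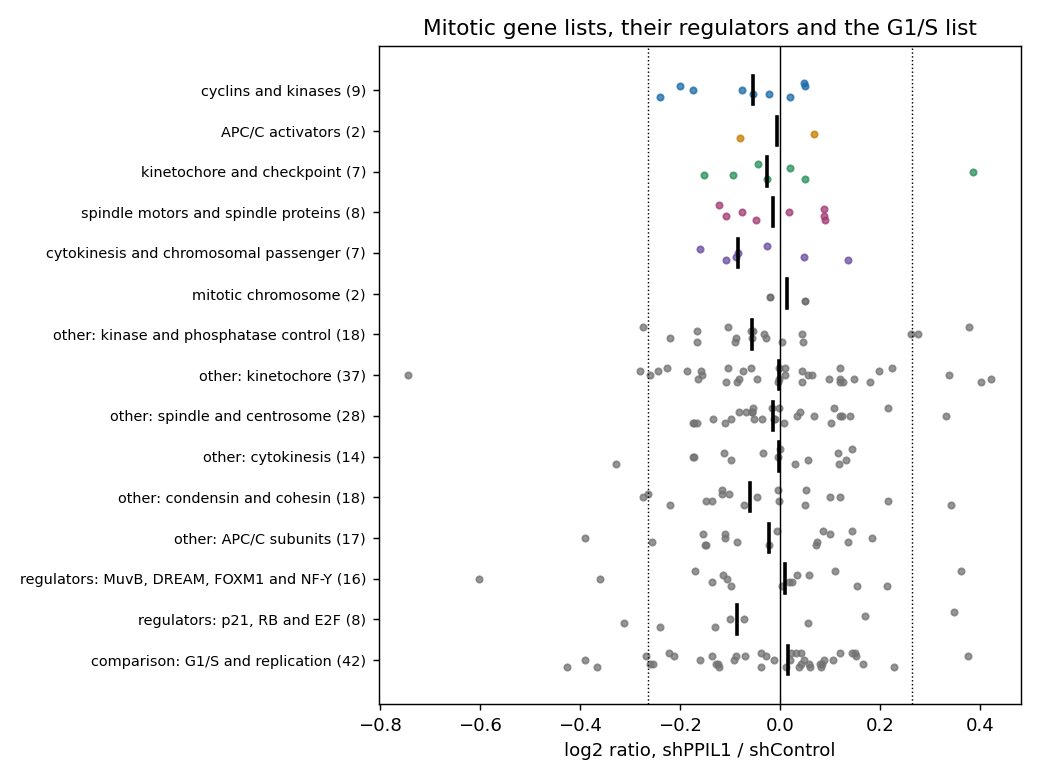
Log2 ratio of shPPIL1 over shControl for every measured gene (points) of the 6 roles of the 35 mitotic genes (coloured), the further mitotic lists, the regulators and the G1/S list (grey), with the number of genes in brackets and the list median as a black bar. Dotted lines mark 1.2-fold. List medians run from -0.09 (p21, RB and E2F) to 0.02 (G1/S and replication), and CENPW is the leftmost point at -0.74.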

How the data were processed

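Polyadenylated RNA was selected, fragmented and turned into cDNA libraries amplified by PCR, per the labels' protocols. The deposited raw counts are whole reads per gene. The authors also deposited FPKM per gene. Dividing counts by library totals and FPKM returned gene lengths that were whole to 0.001 bases for 99.9% of genes in either library. The build is hg38, per the submitters' processing notes; what aligned and counted the reads, with which annotation and strand setting, is not given in the sources. The count table held 7 further columns that match no label, which were not used.

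Totals were multiplied by TMM factors (edgeR 4.0.16 in R 4.3.3) of 1.01 for shPPIL1 and 0.993 for shControl. Genes with 1 CPM or more in at least 1 library were kept. Ratios carry exact 95% intervals (Clopper-Pearson on a gene's reads, SciPy 1.17.1). With 1 library per group these cover counting error only. They treat reads as independent, but PCR reads without molecular identifiers are not independent molecules. The intervals can therefore be too narrow even for counting error. At 100 reads in each library the interval reached 1.33-fold, and at 5000 reads 1.04-fold. The ratio step was tested on simulated counts. Size factors of DESeq2 1.42.0, totals, other filters, other folds and log2(FPKM + 1) were tried as alternatives. Named genes are the 35 members, PPIL1, any measured regulator, and up to 3 called genes per direction in each further list. Outside this rule, INCENP and every gene called lower in the G1/S list are named. So are cell type markers and the genes that overlap or copy a member. A regulator is not reported here and was left out of its list. HJURP and PKMYT1 were named after their values were seen. Coordinates and promoters are from RefSeq (GRCh38.p14), and windows of 100 bases, every 10 bases, from GENCODE transcripts of the same build. The members and lists were chosen with earlier results of these data known.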

Additional observations from a re-analysis of the deposited data

How the results depend on the processing

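The median log2 ratio of the 35 genes ran from -0.03 to -0.01 over the 5 alternatives (library totals, DESeq2 size factors, no filter on low counts, a 5 CPM filter, and log2(FPKM + 1), where a call needed only the fold). CENPA was the single gene called higher and 0 were called lower under each of these 5. Of all genes kept under each of the 5 settings, 5.73% to 9.75% were called higher and 5.59% to 9.31% lower. With 1.1-fold in place of 1.2-fold, 5 genes were lower (CDC25C, PLK1, CCNB1, ECT2 and BUB1B), against 19.0% of all genes kept. With 1.5-fold 0 genes were higher, against 2.02% of all genes kept. Scaled by library totals, an alternative chosen after seeing the data for this count, 12 genes had an interval above 1 and 11 below. With DESeq2 size factors, likewise outside the plan for this count, 8 lay above and 14 below. The matching shares of all genes kept were not computed under either scaling. PPIL1 had a difference of -3.24 on the log2(FPKM + 1) scale, which understates low genes, against -3.88 on counts. The medians of the APC/C group and of the spindle group changed sign under library totals and under log2(FPKM + 1). So did those of the further kinetochore, spindle and centrosome, and cytokinesis lists. The further kinetochore and cytokinesis medians also changed sign under DESeq2 size factors. Each of these medians stayed within 0.02 of 0. With 1 library per group, depth limits single ratios to the intervals given, and variation between cultures is not measured. No paired analysis was possible because each group has 1 library.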
